A study of Mus musculus with 8 samples.

Results

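A group of 10 genes that write, copy, erase or guard DNA methylation was followed in mouse oocytes grown in culture. They are Dnmt1, Dnmt3a, Dnmt3b, Dnmt3l, Uhrf1, Tet2, Tet3, Tdg, Dppa3 (Stella) and Zfp57. They were chosen by name, and all 10 were found among the 55385 genes of the deposited count table. The groups were sex-converted XX oocytes at metaphase II (MII), native XX oocytes at MII, sex-converted XX oocytes at the germinal vesicle stage (GV) and native XX oocytes at GV, with 2 libraries each. GV oocytes are fully grown and arrested in prophase of meiosis I, and MII oocytes are mature eggs arrested before fertilisation. The sex-converted line holds XX stem cells that came from a male, and the native line was XX from its start. The sample descriptions give 1 stem cell name per line, N2DsRed4XO63R2 for sex-converted and H18 for native, so a difference between the lines could not be told apart from one between single stem cell lines. The stem cells, of strain C57BL/6 x 129/SvJ, carried Blimp1-mVenus and Stella-ECFP transgenes. Germ cells made from them were grown in aggregates with somatic cells of female gonads from embryonic day 12.5, so the supporting cells came from a donor and not from the line under test. GV oocytes were taken at day 11 of growth culture, and MII oocytes after a further 16 hours of maturation with a first polar body as the sign of success. Oocytes were kept for sequencing if they showed ECFP from the Stella reporter, so Dppa3 bears on how the oocytes were picked in every group. Each library pooled 35 to 58 oocytes at MII or 31 to 158 at GV.

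In the growing oocyte, Dnmt3a with its catalytically inactive partner Dnmt3l lays down methylation, including the maternal imprints. Dnmt1 copies methylation to new DNA strands, guided by Uhrf1, and the egg stores an oocyte form of Dnmt1 for the embryo. After fertilisation Tet3 oxidises methylcytosine, mainly on the paternal genome, while Stella shields the maternal genome and in oocytes keeps Uhrf1 out of the nucleus. Zfp57 binds methylated imprinting control regions and recruits the corepressor Trim28, which guards imprints in the embryo. Tdg, a DNA glycosylase, removes oxidised cytosines so that they can be replaced by repair.

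Because the libraries were made from polyadenylated RNA, the ends of the messages are shown for the 9 genes whose reads passed the expression filter. Short poly(A) tails grow in maturation when a message carries a cytoplasmic polyadenylation element (CPE) near its polyadenylation signal, and a longer tail cannot be told apart from more RNA in such libraries. Each line gives 30 bases of the message strand near the annotated end of 1 transcript, from GENCODE M21 on GRCm38. Capitals mark AATAAA or ATTAAA signals and the CPE motifs TTTTAT and TTTTAAT within those bases.
Tet3: gggtgTTTTAATAAATTTTATatttatttt
Tet2: atgtgagtgtTTTTAATAAAatttatattt
Dppa3: ccagaaatttgtAATAAAagcatttttgtt
Zfp57: cccaccccacaaAATAAAtacaatttttaa
Dnmt1: atatttcttcaaAATAAAgcgcttctgtca
Uhrf1: atattgcAATAAAATAAAattctggccggg
Dnmt3a: aaatagagcttcAATAAAcatctttatgtt
Dnmt3b: cctttctggttgATTAAAgttgtatttctc
Dnmt3l: ttcaaatatatcataggattgttactggta
In Tet3 and Tet2 the CPE runs into the signal as TTTTAATAAA, and Tet3 has a TTTTAT directly after it. That joined run stood in the last 50 bases of 139 transcripts, or 1.21% of the 11455 with a 3 prime UTR of at least 150 bases. Over their last 150 bases, Tet3, Dnmt1 and Dnmt3a each held 1 TTTTAT outside the bases shown, which gives Tet3 3 CPE motifs in all. No CPE of these spellings was found there in Dppa3, Zfp57, Uhrf1, Dnmt3b or Dnmt3l. A CPE was present in 25.7% of the 11455 transcripts and a signal within the last 50 bases in 79.5%, and Dnmt3l had no such signal at this annotated end. A match is a description of letters and not of a site in use.

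From GV to MII, the order of these messages was rearranged in both lines. Tet3, Tet2, Dnmt3b and Dppa3 rose, Zfp57 and Dnmt1 fell, and Dnmt3a, Dnmt3l and Uhrf1 were not called. The test was edgeR's quasi-likelihood test over 14929 genes with trimmed mean of M-values (TMM) scaling, with 0.05 as the limit on the Benjamini-Hochberg adjusted p for a call. So 6 of 9 tested genes were called in the sex-converted line, where 65.5% of all tested genes were called, and 6 of 9 in the native line, where 65.2% were. Read against that background, the number called is not a result about these genes, and the sizes and directions are what follows. Levels are given as CPM, the read count of a gene scaled to the size of its library, with library sizes multiplied by the TMM factors. In the sex-converted line the CPM of the stages did not overlap for 4 genes that were higher and 2 that were lower at MII, where 84.8% of all tested genes did not overlap (37.6% higher, 47.2% lower). In the native line this held for the same 4 and 2 genes and for Tdg, which was lower at MII on 4 reads in all, where 83.5% of tested genes did not overlap (37.4% higher, 46.1% lower). The labels call the libraries biological duplicates, with no more on cultures or days, and p-values measure the spread between such libraries. TMM sets the bulk of messages level, so a change is one relative to other messages, and loss of RNA per oocyte is not measured.

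**Figure D1:**
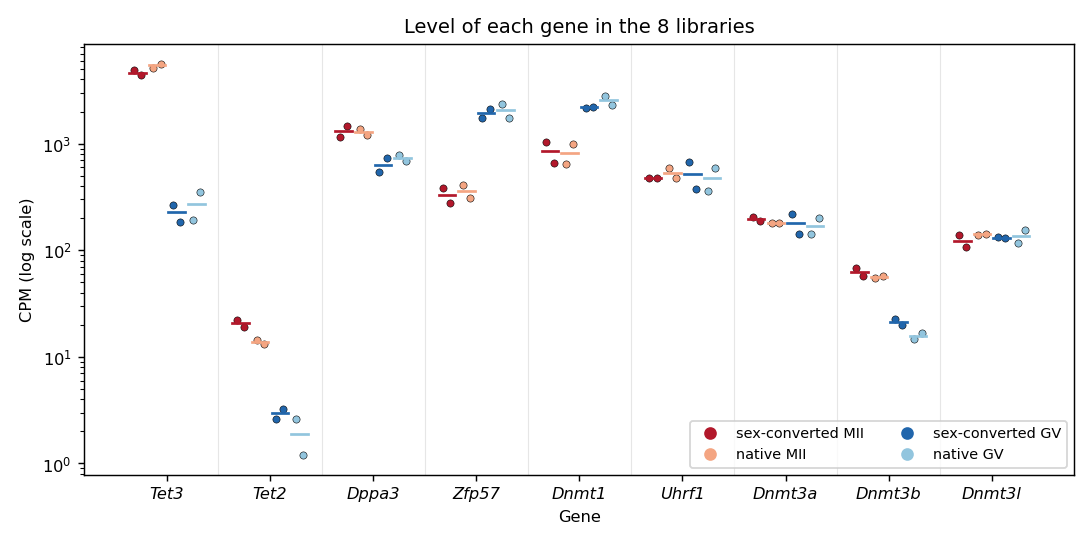
CPM on a log axis of 9 genes in each of the 8 libraries (points), with group means as bars. The MII points of Tet3, Tet2 and Dnmt3b all lie above their GV points, those of Zfp57 and Dnmt1 all lie below, and Tdg, with 5 reads in all, is not drawn.

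Tet3, the dioxygenase that the egg supplies to the zygote, showed the widest change of the 9 genes. Its level was 4863 and 4360 CPM in sex-converted MII oocytes and 5176 and 5636 CPM in native MII oocytes, against 267 and 185 CPM in sex-converted GV oocytes and 190 and 355 CPM in native GV oocytes. The lowest MII library was 12.3-fold above the highest GV library. The log2 fold change of MII over GV was 4.35 in the sex-converted line (SE 0.295, adjusted p = 8.84e-07, edgeR) and 4.31 in the native line (SE 0.295, adjusted p = 8.34e-07, edgeR). Ranked per kilobase of exon among the 14929 genes, Tet3 stood at places 132 to 178 in MII libraries and 2148 to 3694 in GV libraries. Tet3 (ENSMUSG00000034832.15) is on chromosome 6, bases 83362373 to 83459084 of GRCm38, minus strand, and no window of 75 bases of its transcripts was shared with another annotated gene.

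Tet2, a related dioxygenase, moved the same way at a much lower level. It had 22.2 and 19.0 CPM in sex-converted MII oocytes and 14.4 and 13.1 CPM in native MII oocytes, against 2.62 and 3.26 CPM in sex-converted GV oocytes and 2.62 and 1.20 CPM in native GV oocytes. The GV values rest on 44, 67, 47 and 17 reads. Its log2 fold change of MII over GV was 2.80 (SE 0.382, adjusted p = 7.12e-05, edgeR) in the sex-converted line and 2.82 (SE 0.395, adjusted p = 8.6e-05, edgeR) in the native line, where it was 3.53 without native GV replicate 1. Per kilobase, Tet3 exceeded Tet2 by 221 to 436 times in MII libraries and by 57.3 to 300.1 times in GV libraries. Tet1, the remaining family member, had 22 to 33 reads in MII libraries and 47 to 77 in GV libraries and was not called (log2 fold change of -0.34 in the sex-converted line, adjusted p = 0.476, and of -0.15 in the native line, adjusted p = 0.758, edgeR). With library totals as the only scaling Tet1 was called lower, at -1.27 in the sex-converted line and -1.06 in the native line. Tet2 (ENSMUSG00000040943.12) is on chromosome 3, bases 133463679 to 133545139, minus strand.

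Tdg was all but unread. It had 1 read in sex-converted MII replicate 1 and 0 in the other 3 MII libraries, against 3 and 1 reads in native GV oocytes and 0 in both sex-converted GV libraries. Over all libraries these 5 reads among 104041689 came to 0.0481 CPM of the raw library totals, with an exact Poisson 95% interval of 0.0156 to 0.112 that covers counting error only. Of the distinct 75-base windows of its transcripts, 33.8% also occur in other annotated genes, most of them pseudogenes of Tdg, and those genes had at most 4 reads in a library. How reads with several matches were handled is not stated in the labels. Tdg (ENSMUSG00000034674.18, plus strand of chromosome 10 from 82629828 to 82650799) did not pass the filter and has no test.

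Dppa3, which encodes Stella, was the most abundant of the 10 messages per kilobase at both stages. It had 1146 and 1460 CPM in sex-converted MII oocytes and 1378 and 1205 CPM in native MII oocytes, against 536 and 736 CPM in sex-converted GV oocytes and 777 and 684 CPM in native GV oocytes. No MII library overlapped a GV library. The log2 fold change of MII over GV was 1.03 (SE 0.194, adjusted p = 0.000714, edgeR) in the sex-converted line and 0.82 (SE 0.194, adjusted p = 0.00317, edgeR) in the native line. This rise depended on the scaling, since with library totals alone it was 0.10 in the sex-converted line (adjusted p = 0.631, edgeR) and -0.088 in the native line (adjusted p = 0.683, edgeR). Its place among 14929 genes per kilobase was 22 to 30 in MII libraries and 13 to 19 in GV libraries. The pseudogene Dppa3-ps shares 3.79% of its windows and had 34 to 58 reads, against 8998 to 15349 for Dppa3. Whether reads of the Stella-ECFP transgene were counted to Dppa3 was not tested. Dppa3 (ENSMUSG00000046323.8) is on chromosome 6, bases 122626410 to 122630272, plus strand.

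Zfp57 fell the most. It had 382 and 275 CPM in sex-converted MII oocytes and 409 and 308 CPM in native MII oocytes, against 1733 and 2118 CPM in sex-converted GV oocytes and 2347 and 1746 CPM in native GV oocytes. The lowest GV library was 4.24-fold above the highest MII library. The log2 fold change of MII over GV was -2.55 (SE 0.232, adjusted p = 4.25e-06, edgeR) in the sex-converted line and -2.51 (SE 0.232, adjusted p = 4.53e-06, edgeR) in the native line. Per kilobase it stood at places 616 to 910 of 14929 in MII libraries and 30 to 35 in GV libraries. Its partner Trim28 had 761 and 696 CPM in sex-converted MII oocytes and 834 and 662 CPM in native MII oocytes, against 388 and 311 CPM in sex-converted GV oocytes and 323 and 379 CPM in native GV oocytes. The ratio of Zfp57 to Trim28 per kilobase, which no library scaling can change, was 0.434 to 0.551 in MII libraries and 4.91 to 7.97 in GV libraries. Zfp57 (ENSMUSG00000036036.15) is on chromosome 17, bases 37001163 to 37010635, plus strand.

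Dnmt1, the maintenance methyltransferase, also fell. It had 1028 and 661 CPM in sex-converted MII oocytes and 642 and 994 CPM in native MII oocytes, against 2157 and 2216 CPM in sex-converted GV oocytes and 2813 and 2290 CPM in native GV oocytes. The 2 MII libraries differed by 1.55-fold in each line, and all of them lay below every GV library. The log2 fold change of MII over GV was -1.37 (SE 0.244, adjusted p = 0.000488, edgeR) in the sex-converted line and -1.64 (SE 0.246, adjusted p = 0.000143, edgeR) in the native line. Dnmt1 (ENSMUSG00000004099.16) is on chromosome 9, bases 20907209 to 20959888, minus strand.

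The gene has several starts, and the oocyte form is known to begin at a first exon upstream of the somatic one. Counts per gene sum over all of them, so the oocyte and somatic forms were not measured apart. The most upstream and most downstream of the 3 start windows that RefSeq gives on GRCm38.p6 are printed to show what is summed, each from 250 bases before to 50 after the start on the minus strand, with CG in capitals.
Dnmt1, upstream start, chr9:20959839-20960138: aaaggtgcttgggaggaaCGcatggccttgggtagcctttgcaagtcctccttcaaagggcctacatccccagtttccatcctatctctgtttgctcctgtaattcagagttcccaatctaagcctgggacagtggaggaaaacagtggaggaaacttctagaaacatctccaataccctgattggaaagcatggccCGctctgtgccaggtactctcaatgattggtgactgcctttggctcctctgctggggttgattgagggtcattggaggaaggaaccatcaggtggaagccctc
Dnmt1, downstream start, chr9:20952574-20952873: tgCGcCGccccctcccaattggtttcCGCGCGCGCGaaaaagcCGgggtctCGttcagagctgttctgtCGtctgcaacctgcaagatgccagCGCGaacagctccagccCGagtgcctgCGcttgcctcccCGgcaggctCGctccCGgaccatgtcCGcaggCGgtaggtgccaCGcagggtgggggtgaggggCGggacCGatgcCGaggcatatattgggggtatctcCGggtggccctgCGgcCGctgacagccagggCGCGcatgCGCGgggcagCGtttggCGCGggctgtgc
The upstream window holds 2 CG and the downstream one 33, beside a median of 7 over 32851 such windows in the table. The window that is not printed, chr9:20952930-20953229, lies between them and holds 12 CG. None of the windows was matched to the oocyte or the somatic form, so the printed pair does not stand for those forms. Which start the reads came from was not tested.

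Uhrf1, which brings Dnmt1 to newly copied DNA, was not called in maturation. It had 471 and 481 CPM in sex-converted MII oocytes and 594 and 475 CPM in native MII oocytes, against 667 and 376 CPM in sex-converted GV oocytes and 362 and 586 CPM in native GV oocytes. The GV libraries spread more widely than the MII libraries, and their range over both lines enclosed all MII libraries. The log2 fold change of MII over GV was -0.13 in the sex-converted line (95% interval -0.752 to 0.488, adjusted p = 0.695, edgeR) and 0.17 in the native line (95% interval -0.446 to 0.794, adjusted p = 0.605, edgeR). With Dnmt1 lower, the ratio of Uhrf1 to Dnmt1 per kilobase was 0.795 to 1.60 in MII libraries and 0.223 to 0.536 in GV libraries. The ratio of Dppa3 to Uhrf1 was 11.1 to 14.5 in MII libraries and 3.84 to 10.3 in GV libraries. The stages did not overlap in either ratio, but how often ratios of other gene pairs do so was not computed. The pseudogene Gm5648 shares 9.05% of Uhrf1 windows and had 6 to 29 reads. Uhrf1 (ENSMUSG00000001228.14) is on chromosome 17, bases 56303321 to 56323486, plus strand.

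Among the de novo enzymes, Dnmt3a and its partner Dnmt3l were not called, while Dnmt3b rose. Dnmt3a had 206 and 187 CPM in sex-converted MII oocytes and 181 and 179 CPM in native MII oocytes, against 220 and 143 CPM in sex-converted GV oocytes and 141 and 200 CPM in native GV oocytes. Its stages overlapped, and the log2 fold change of MII over GV was 0.11 in the sex-converted line (95% interval -0.407 to 0.636, adjusted p = 0.685, edgeR) and 0.080 in the native line (95% interval -0.442 to 0.601, adjusted p = 0.783, edgeR). Dnmt3l had 139 and 107 CPM in sex-converted MII oocytes and 139 and 144 CPM in native MII oocytes, against 132 and 130 CPM in sex-converted GV oocytes and 117 and 155 CPM in native GV oocytes. It overlapped between stages too, with log2 fold changes of -0.091 in the sex-converted line (95% interval -0.544 to 0.363, adjusted p = 0.713, edgeR) and 0.053 in the native line (95% interval -0.400 to 0.506, adjusted p = 0.834, edgeR). The intervals of Dnmt3a reach from 0.754-fold to 1.55-fold in the sex-converted line and from 0.736-fold to 1.52-fold in the native line, so changes within those bounds remained possible. The ratio of Dnmt3l to Dnmt3a per kilobase was 3.19 to 4.46 in MII libraries and 3.35 to 5.04 in GV libraries. Aire, which overlaps Dnmt3l on the other strand, had 43 to 76 reads in MII libraries and 151 to 226 in GV libraries, and the labels do not state which strand was counted.

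Dnmt3b, best known as the de novo enzyme of the embryo, had 67.6 and 57.4 CPM in sex-converted MII oocytes and 55.1 and 57.3 CPM in native MII oocytes, against 22.8 and 19.9 CPM in sex-converted GV oocytes and 14.6 and 16.7 CPM in native GV oocytes. All MII libraries lay above all GV libraries. Its log2 fold change of MII over GV was 1.55 (SE 0.223, adjusted p = 0.000108, edgeR) in the sex-converted line and 1.85 (SE 0.227, adjusted p = 3.3e-05, edgeR) in the native line. The ratio of Dnmt3a to Dnmt3b per kilobase of exon was 0.935 to 1.01 in MII libraries and 2.21 to 3.68 in GV libraries. Dnmt3c, a rodent copy of Dnmt3b, shares 6.17% of its windows and had 10 to 25 reads in MII libraries and 17 to 46 in GV libraries. Dnmt3a (ENSMUSG00000020661.15) is on chromosome 12, bases 3806007 to 3914443, plus strand, Dnmt3b (ENSMUSG00000027478.15) on chromosome 2, bases 153649450 to 153687730, plus strand, and Dnmt3l (ENSMUSG00000000730.13) on chromosome 10, bases 78041947 to 78063622, plus strand.

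**Figure D2:**
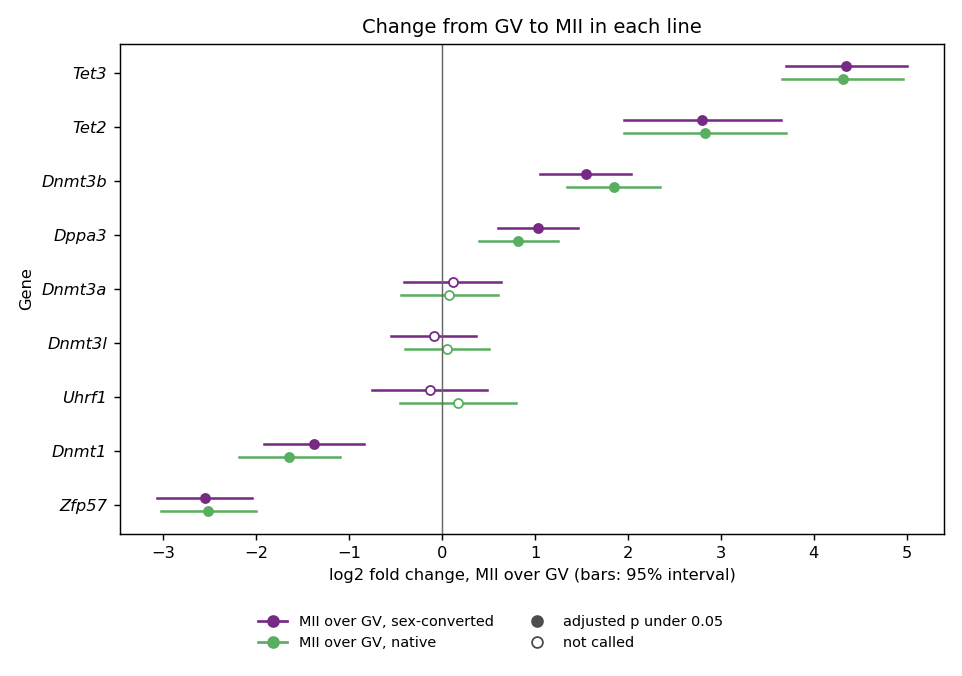
log2 fold change of MII over GV (TMM scaling) for 9 genes in the sex-converted line (upper of each pair) and the native line, with 95% intervals as bars and filled points for adjusted p under 0.05. Tet3 (4.35 sex-converted, 4.31 native) and Zfp57 (-2.55 sex-converted, -2.51 native) lie at the ends, and Dppa3 (1.03 sex-converted, 0.82 native) comes to 0.10 in the sex-converted line and -0.088 in the native line with library totals as the only scaling.

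Scaling bears on the sizes of the changes above and on some of their directions. The TMM factors were 0.714 to 0.733 in MII libraries and 1.33 to 1.43 in GV libraries, and when only library totals were used for scaling, the median of all tested genes moved by -0.93 on the log2 scale in the sex-converted line and by -0.91 in the native line. The share of called genes that were higher at MII then became 23.4% in place of 44.7% in the sex-converted line, and 24.6% in place of 45.3% in the native line. Under that scaling Tet3, Tet2 and Dnmt3b were called higher and Zfp57 and Dnmt1 lower, as with TMM. Dnmt3a, Dnmt3l and Uhrf1 were then called lower in both lines, with Dnmt3a at -0.83 in the sex-converted line and -0.84 in the native line, close to the shift of the median gene. That made 8 of 9 called in the sex-converted line, 3 higher and 5 lower, where 68.0% of all tested genes were called (15.9% higher, 52.1% lower). In the native line it was also 8 of 9, 3 higher and 5 lower, where 67.7% were called (16.7% higher, 51.0% lower).

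**Figure D3:**
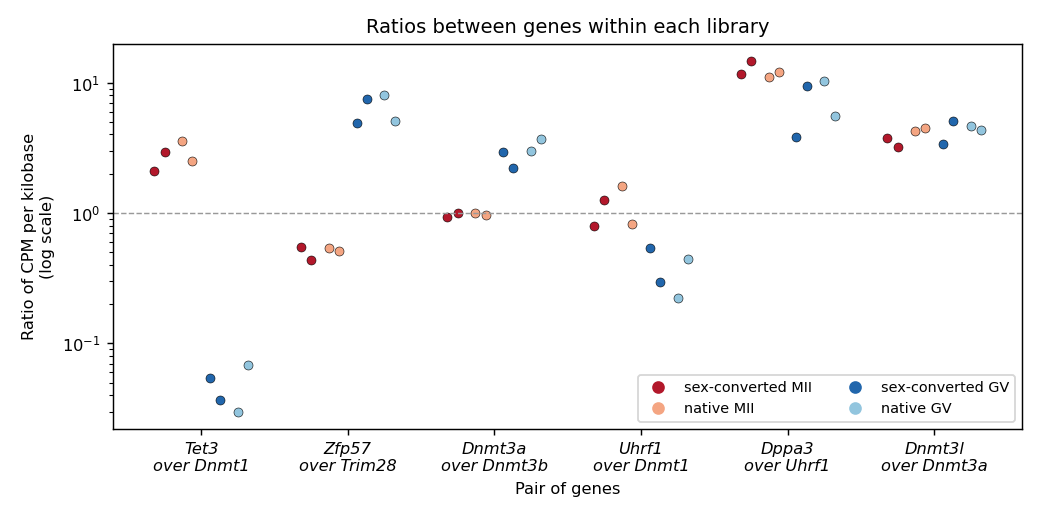
Ratios of CPM per kilobase of exon between pairs of genes within each of the 8 libraries, on a log axis with a dashed line at 1. Tet3 over Dnmt1 is 2.09 to 3.56 in MII libraries and 0.0299 to 0.0685 in GV libraries, Zfp57 over Trim28 and Dnmt3a over Dnmt3b are lower at MII, and Dnmt3l over Dnmt3a overlaps between stages.

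Per kilobase of exon, the mean order at MII was Dppa3 at 1454 CPM, Tet3 at 300.0, Uhrf1 at 119, Dnmt1 at 113, Zfp57 at 90.7, Dnmt3l at 44.2, Dnmt3b at 11.6, Dnmt3a at 11.3, Tet2 at 1.02 and Tdg at 0.00509. At GV it was Dppa3 at 766 CPM, Zfp57 at 525, Dnmt1 at 321, Uhrf1 at 117, Dnmt3l at 44.7, Tet3 at 14.9, Dnmt3a at 10.6, Dnmt3b at 3.62, Tet2 at 0.144 and Tdg at 0.0111. Tet3 thus stood at place 2 at MII and place 6 at GV. At MII the neighbours Uhrf1 and Dnmt1, Dnmt1 and Zfp57, and Dnmt3b and Dnmt3a overlapped between libraries, with Dnmt1 at 87.0 to 139 CPM per kilobase and Zfp57 at 72.7 to 108. At GV the neighbours Dppa3 and Zfp57, and Tet3 and Dnmt3a, overlapped between libraries. Within every GV library, though, Dppa3 was above Zfp57 and Tet3 was above Dnmt3a. At MII, Uhrf1 and Dnmt1, and Dnmt3b and Dnmt3a, changed places when the length of 1 chosen transcript replaced the union of exons. Tet3 and Dnmt1 crossed over: their ratio per kilobase was 2.09 to 3.56 in MII libraries and 0.0299 to 0.0685 in GV libraries.

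None of these genes was called between sex-converted and native oocytes. At MII 0 of 9 were called, where 0.0134% of all tested genes were, and at GV 0 of 9 were called, where 0.0134% were as well. By edgeR none of the 9 reached an unadjusted p under 0.05 at either stage, while 549 of 14929 genes did at MII and 319 at GV, and DESeq2 likewise called 0 of the 9. The change in maturation was compared between the lines by an interaction, and 0 of 9 genes were called there, with 0.0% of all genes called and 329 at an unadjusted p under 0.05. Those differences of log2 fold change ran from -0.31 for Uhrf1 (95% interval -1.18 to 0.571) to 0.27 for Dnmt1 (95% interval -0.479 to 1.02). Such intervals show what size of difference remained possible and do not show that the lines were alike.

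For Tet3 the log2 difference of sex-converted over native was -0.23 at MII (95% interval -0.796 to 0.337) and -0.27 at GV (95% interval -0.839 to 0.299). For Zfp57 it was -0.13 at MII (95% interval -0.61 to 0.359) and -0.088 at GV (95% interval -0.57 to 0.394). For Dnmt1 it was 0.046 at MII (95% interval -0.483 to 0.575) and -0.22 at GV (95% interval -0.752 to 0.305). For Dppa3 it was 0.013 at MII (95% interval -0.41 to 0.437) and -0.20 at GV (95% interval -0.623 to 0.225). All of these intervals included 0. Tet3 at MII differed between the lines by more than its replicates did, without a call, since the replicates differed by 1.12-fold in sex-converted MII oocytes and 1.09-fold in native MII oocytes and the lines did not overlap.

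Tet2 and Dnmt3b were higher in both sex-converted libraries than in both native ones at each stage, without being called. Over all tested genes, the CPM of the lines did not overlap, with the sex-converted line higher, in 15.1% at MII and 12.5% at GV. The log2 difference of Tet2 was 0.58 at MII (95% interval -0.197 to 1.36) and 0.61 at GV (95% interval -0.26 to 1.47). At GV the order of Tet2 is close to a tie, with 44 reads (2.623 CPM) in sex-converted GV replicate 1 against 47 reads (2.617 CPM) in native GV replicate 1. The GV difference was 1.31 without native GV replicate 1 and 0.17 without native GV replicate 2. That of Dnmt3b was 0.15 at MII (95% interval -0.328 to 0.632) and 0.45 at GV (95% interval -0.0374 to 0.941). Dnmt3a was also higher in both sex-converted MII libraries than in both native MII libraries. Dnmt1 was lower in both sex-converted GV libraries than in both native GV libraries, an order seen in 11.0% of genes and, on 4 reads in all, in Tdg, and Tet3 was lower in both sex-converted MII libraries, an order seen in 15.9%. The remaining genes had differences from -0.20 to 0.14.

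The GV libraries crossed the lines in several genes. Sex-converted GV replicate 1 and native GV replicate 2 were the higher ones for Tet3, Uhrf1 and Dnmt3a, and sex-converted GV replicate 2 and native GV replicate 1 were the lower ones. Zfp57 and Dppa3 had the opposite order, with sex-converted GV replicate 2 and native GV replicate 1 higher. Replicate numbers do not link the lines in the labels, and what these pairs of libraries shared was not tested.

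**Figure D4:**
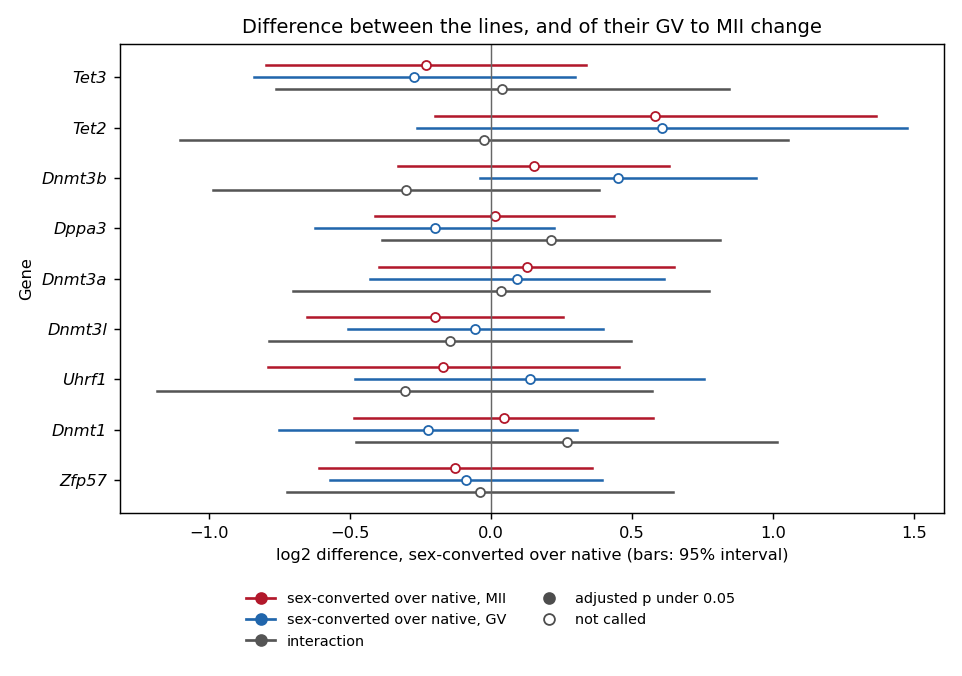
log2 difference of sex-converted over native at MII (top of each triplet), at GV (middle) and the difference between the lines in their MII over GV change (bottom) for 9 genes, with 95% intervals as bars. All points are open because none was called, and the 95% intervals of Tet2 reach from -0.197 to 1.36 at MII and from -0.26 to 1.47 at GV.

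Around these genes, 84 further genes of the methylation pathway were read from 7 lists, of which 78 were tested. In the sex-converted line 27 were called higher and 29 lower at MII, where 29.3% and 36.2% of all tested genes were. In the native line 29 were called higher and 29 lower, where 29.6% and 35.7% of all tested genes were. Between the lines 0 of 78 were called by edgeR or by DESeq2 at either stage, with 1 gene (Mettl23) at an unadjusted p under 0.05 at MII and 0 at GV, and in the interaction 0 were called by either tool with 0 at an unadjusted p under 0.05. For the related genes that follow, rises and falls are log2 fold changes of MII over GV by edgeR, with TMM unless another scaling is named.

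Among 9 other genes of the methylation machinery, 3 rose and 2 fell in the sex-converted line and 4 rose and 2 fell in the native line. The median was 0.44 in the sex-converted line, beside -0.35 over all genes, and 0.24 in the native line, beside -0.31. Hells, a chromatin remodeller needed for methylation of heterochromatin, was at 359 and 387 CPM in sex-converted MII oocytes and 394 and 371 CPM in native MII oocytes, against 84.0 and 123 CPM in sex-converted GV oocytes and 116 and 88.9 CPM in native GV oocytes. Every MII library was above every GV library. Its activator Cdca7 rose by 2.80 in the sex-converted line and 2.44 in the native line, and the replication clamp Pcna rose by 1.70 in the sex-converted line and 1.51 in the native line. The DNA ligase gene Lig1 fell by 2.30 in the sex-converted line and 2.47 in the native line. Cdca7l fell by 1.58 in the native line and by 1.07 in the sex-converted line, where it had -0.69 and no call without sex-converted MII replicate 1 and -1.62 without sex-converted MII replicate 2. Uhrf2, a relative of Uhrf1, had 0.82 in the sex-converted line (adjusted p = 0.0719, edgeR) and was called at 1.39 in the native line (adjusted p = 0.00784, edgeR). That native call was lost when native MII replicate 1, at 0.99, or native GV replicate 2, at 1.07, was left out, and under library totals, at 0.48, while the sex-converted value turned to -0.11 under library totals. Usp7, a deubiquitinase that stabilises Dnmt1 and Uhrf1, was not called, with 0.0067 in the sex-converted line and 0.021 in the native line.

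A list of 12 chromatin genes was read for the set-up of maternal imprints, and such a role was not tested for any of them. Of these, 5 rose and 4 fell in the sex-converted line and 5 rose and 3 fell in the native line. Kdm1b, the H3K4 demethylase required for imprints in oocytes, was at 374 and 435 CPM in sex-converted MII oocytes and 439 and 375 CPM in native MII oocytes, against 276 and 205 CPM in sex-converted GV oocytes and 223 and 153 CPM in native GV oocytes. Its change was 0.75 in the sex-converted line and 1.11 in the native line. Under library totals it was not called in either line, at -0.19 in the sex-converted line and 0.21 in the native line, and the sex-converted call was also lost without sex-converted MII replicate 2, at 0.64, and without sex-converted GV replicate 2, at 0.59. Setd2, the H3K36 methyltransferase that guides methylation in oocytes, had 0.83 in the sex-converted line and 0.80 in the native line with TMM, and -0.11 in the sex-converted line and -0.0999 in the native line under library totals. Its call in the sex-converted line was lost without sex-converted MII replicates 1 or 2, at 0.78 and 0.86, or GV replicate 1, at 0.76. Its call in the native line was lost without native MII replicates 1 or 2, at 0.80 and 0.77, or GV replicate 2, at 0.38, and it had 1.42 without native GV replicate 1. Ehmt1, which encodes an H3K9 methyltransferase, rose by 2.25 in the sex-converted line and 1.94 in the native line. Kdm1a, which encodes a histone demethylase, rose by 1.74 in the sex-converted line and 1.64 in the native line. Nsd2, an H3K36 methyltransferase gene, rose by 1.10 in the sex-converted line and 1.08 in the native line, and had 0.17 without a call in each line under library totals. Nsd1, also an H3K36 methyltransferase gene, fell by 0.98 in the sex-converted line and 1.00 in the native line. Dcaf13, a receptor of the CRL4 ubiquitin ligase, fell by 2.94 in the sex-converted line and 3.48 in the native line.

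Of 12 genes listed for imprint protection, 4 rose and 4 fell in the sex-converted line and 4 rose and 5 fell in the native line. Trim28 rose by 1.06 in the sex-converted line and 1.09 in the native line, and under library totals had no call, at 0.12 in the sex-converted line and 0.18 in the native line. Ctcf, a zinc finger protein that binds unmethylated imprinting control regions, rose by 1.18 in the sex-converted line and 1.15 in the native line, and had 0.24 without a call in each line under library totals. Arid4a rose by 2.27 in the sex-converted line and by 1.66 in the native line, where it had 2.27 without native GV replicate 1. Smchd1, a chromosomal protein that holds imprints and the inactive X silent, rose by 1.57 in the sex-converted line and 1.65 in the native line. Setdb1, the H3K9 methyltransferase that works with Trim28, fell by 1.28 in the sex-converted line and 1.18 in the native line. The heterochromatin gene Cbx5 fell by 1.78 in the sex-converted line and 1.93 in the native line, and the maternal factor Nlrp2 fell by 2.63 in the sex-converted line and 2.82 in the native line. Zfp445, which guards imprints beside Zfp57, was at 12.8 and 21.5 CPM in sex-converted MII oocytes and 14.2 and 15.5 CPM in native MII oocytes, against 28.0 and 28.5 CPM in sex-converted GV oocytes and 32.9 and 29.2 CPM in native GV oocytes. It fell by 0.72 in the sex-converted line (adjusted p = 0.0423, edgeR) and by 1.06 in the native line (adjusted p = 0.00662, edgeR). The sex-converted call was lost without sex-converted MII replicate 1, at -0.40, without sex-converted GV replicates 1 or 2, at -0.72 and -0.67, and with RLE factors or DESeq2, both at -0.66.

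Of 10 genes listed as readers of methylated CpG or as relatives of such readers, 9 were tested, and 3 rose and 4 fell in each line. Mbd5 rose by 2.92 in the sex-converted line and 2.82 in the native line. Zbtb33 (Kaiso) rose by 1.61 in the sex-converted line and by 1.48 in the native line, where it had 0.57 without a call under library totals. Mbd2 rose by 0.88 in the sex-converted line and 0.83 in the native line with TMM, and turned to -0.052 in the sex-converted line and -0.084 in the native line under library totals. Its native call was also lost without native MII replicate 1, at 0.61, and without native GV replicate 2, at 0.75. Mbd1 was at 0.547 and 0.476 CPM in sex-converted MII oocytes and 2.67 and 0.347 CPM in native MII oocytes, against 17.2 and 23.5 CPM in sex-converted GV oocytes and 19.6 and 19.7 CPM in native GV oocytes. It fell by 5.30 in the sex-converted line and by 3.64 in the native line, where it had -5.80 with native MII replicate 1 left out and -2.90 with replicate 2 left out. Mbd3 fell by 1.51 in the sex-converted line and 1.55 in the native line.

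Of 18 genes of demethylation and base repair, 14 were tested, and 2 rose and 8 fell in the sex-converted line and 3 rose and 8 fell in the native line. The median was -1.01 in the sex-converted line, beside -0.35 over all genes, and -1.08 in the native line, beside -0.31. Smug1, a uracil glycosylase gene, was at 306 and 225 CPM in sex-converted MII oocytes and 243 and 246 CPM in native MII oocytes, against 106 and 60.4 CPM in sex-converted GV oocytes and 55.6 and 94.9 CPM in native GV oocytes. It rose by 1.68 in the sex-converted line and 1.70 in the native line, and under library totals had no call, at 0.74 in the sex-converted line and 0.78 in the native line. Gadd45a, a stress-induced gene linked to demethylation, rose by 1.72 in the sex-converted line and 1.39 in the native line, and under library totals had no call, at 0.80 in the sex-converted line and 0.47 in the native line. Without sex-converted GV replicate 2 it had 2.31 in the sex-converted line. Parp2, which senses DNA breaks, fell by 4.13 in the sex-converted line and 5.33 in the native line. It had -4.75 without sex-converted MII replicate 1 in that line, and in the native line -7.26 with native MII replicate 1 left out and -4.65 with replicate 2 left out. The DNA ligase gene Lig3 fell by 2.81 in the sex-converted line and 2.20 in the native line, and the glycosylase gene Neil2 fell by 1.45 in the sex-converted line and 1.34 in the native line.

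Of 7 genes of the CRL4 ubiquitin ligase and of nuclear export, 5 rose in the sex-converted line, and 4 rose and 1 fell in the native line. Ddb1, the adaptor of this ligase, which works with Dcaf1 to support Tet activity in mouse oocytes, was at 1525 and 1580 CPM in sex-converted MII oocytes and 1663 and 1528 CPM in native MII oocytes, against 476 and 388 CPM in sex-converted GV oocytes and 366 and 469 CPM in native GV oocytes. Ddb1 rose by 1.84 in the sex-converted line and 1.94 in the native line. The cullin gene Cul4b rose by 1.84 in the sex-converted line and 1.61 in the native line, and Cul4a rose by 1.60 in the sex-converted line and 1.80 in the native line. Dcaf1 itself was not called, with 0.16 in the sex-converted line and 0.069 in the native line. Xpo1, the nuclear exporter linked to the removal of Uhrf1 by Stella, had -0.43 in the sex-converted line (adjusted p = 0.12, edgeR), where it was called at -1.36 under library totals, and fell by 0.91 in the native line (adjusted p = 0.00503, edgeR).

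Of 16 genes of methyl donor supply, 15 were tested, and 5 rose and 7 fell in the sex-converted line and 6 rose and 6 fell in the native line. Mat2a, which makes S-adenosylmethionine, was at 167 and 169 CPM in sex-converted MII oocytes and 137 and 141 CPM in native MII oocytes, against 44.4 and 46.8 CPM in sex-converted GV oocytes and 45.2 and 39.3 CPM in native GV oocytes. It rose by 1.88 in the sex-converted line and 1.72 in the native line. The methionine synthase gene Mtr rose by 2.27 in each line. The folate enzyme gene Mthfd2 rose by 1.92 in the sex-converted line and 2.02 in the native line, and Shmt2 rose by 1.84 in the sex-converted line and 1.76 in the native line. The liver-type synthetase gene Mat1a fell by 3.62 in the sex-converted line and 3.08 in the native line, and in the sex-converted line it had -4.64 without sex-converted MII replicate 1 and -2.998 without sex-converted MII replicate 2. Ahcy, which clears S-adenosylhomocysteine, fell by 3.87 in the sex-converted line and 3.75 in the native line, and in the native line it had -4.59 without native MII replicate 1 and -3.11 without native GV replicate 2.

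**Figure D5:**
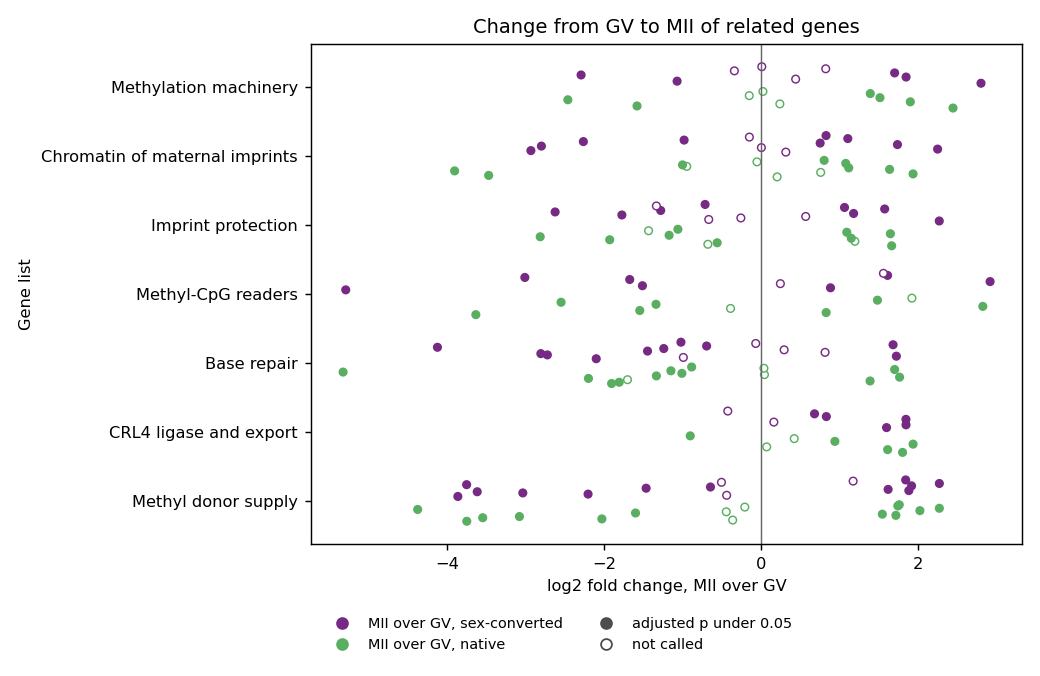
log2 fold change of MII over GV (TMM scaling) of the 78 tested related genes by list, with the sex-converted line in the upper and the native line in the lower row of each list and filled points for adjusted p under 0.05. The base repair list lies mostly to the left of 0, with a median of -1.01 in the sex-converted line and -1.08 in the native line. Scaled by library totals alone, the median of all genes moves by -0.93 in the sex-converted line and -0.91 in the native line, and Mbd2 and Setd2 change sign in both lines and Kdm1b and Uhrf2 in the sex-converted line.

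The genes whose profiles over the 8 libraries came closest were found by Euclidean distance between log2(CPM + 1) values centred on each gene's mean, among 7257 or 7258 genes at 10 CPM or more. Closest to Tet3 were Lmtk2 at a distance of 0.587 and Zcchc14 at 0.642, and closest to Tet2 were Tmem123 at 0.374 and Cdh19 at 0.413. Dppa3 was followed by Tra2a at 0.263 and Ndufa4 at 0.266, and Zfp57 by Glrx at 0.204 and Ccdc92 at 0.241. Dnmt1 was followed by Pphln1 at 0.403 and Dph3 at 0.442, and Uhrf1 by Slc38a10 at 0.204 and Smarcd2 at 0.305. Dnmt3a had Esr2 at 0.217 and Tspan14 at 0.237, Dnmt3b had Lgals12 at 0.255 and Crkl at 0.272, and Dnmt3l had Stom at 0.284 and Npc2 at 0.297. Lmtk2 stood at 155 to 183 CPM in MII libraries and 6.57 to 9.78 CPM in GV libraries, and Glrx at 47.4 to 62.5 CPM in MII libraries and 294 to 359 CPM in GV libraries.

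The libraries held 10306471 to 14999003 reads. The 10 oocyte markers, among them Zp3, Gdf9 and Ddx4, summed to 15300 to 18600 CPM in MII libraries and 12300 to 14900 CPM in GV libraries, and none was at 0. The sum hides opposite changes. Gdf9, Oosp1 and Ddx4 were called higher at MII in both lines. Bmp15, Figla, Nlrp5, Nobox, Zp2 and Zp3 were called lower in both, and Zp1 in the sex-converted line. Gdf9 was at 7847 to 9599 CPM in MII libraries and 3791 to 4361 in GV libraries, and Oosp1 at 4130 to 5163 and 685 to 846. The 18 granulosa and cumulus markers summed to 144 to 170 CPM in MII libraries and 67.5 to 97.6 CPM in GV libraries, with 1 marker at 0 in all MII libraries, 2 at 0 in all GV libraries, and Amh and Foxl2 under 1 CPM in every library. Cyp19a1 was at 48.0 to 63.5 CPM in MII libraries and 12.4 to 19.4 in GV libraries. Kitl was at 21.2 to 35.8 CPM in MII libraries and 3.17 to 5.96 in GV libraries. Cyp19a1, Kitl and Has2 were called higher at MII in both lines, and Fst in the native line. Fshr was called lower in both lines. In MII libraries the 11 stromal and theca markers summed to 15.6 to 88.0 CPM, the highest being replicate 1 of both lines. In GV libraries they summed to 1.37 to 1.55 CPM. Of them, 4 were at 0 in all MII libraries and 5 in all GV libraries. Spp1, Thbs1, Vim and Acta2 were called higher at MII in both lines, while Dcn and Pdgfra were not called. Spp1 was at 6.13 to 34.3 CPM in MII libraries and 0 in GV libraries. Dcn was at 0.547 to 0.926 CPM in MII libraries and 0.536 to 0.894 in GV libraries. Col1a1, Col1a2, Col3a1, Lum and Cyp17a1 were under 1 CPM in every library. The 8 stem cell markers summed to 77.4 to 94.6 CPM in MII libraries and 81.3 to 165 CPM in GV libraries. Most of that sum was Esrrb and Klf4. Esrrb was at 41.2 to 58.1 CPM in MII libraries and 64.6 to 137 in GV libraries, and was called lower in the sex-converted line. Klf4 was at 28.5 to 36.4 CPM in MII libraries and 13.5 to 22.0 in GV libraries, and was called higher in both lines. Nanog, Fgf4, Prdm14 and Tdgf1 were under 1 CPM in every library, with Nanog and Fgf4 at 0 in all MII libraries. The oocyte, granulosa and stromal sums did not overlap between the stages, while the stem cell sums did. Their part in the values of Tet2, Dnmt3b and the other genes was not tested.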

How the data were processed

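Polyadenylated RNA of pooled oocytes was sequenced as single reads of 75 bases from stranded libraries, per the labels' protocols. The deposited values are raw read counts per gene in 1 table made by the authors. Per the submitters' processing notes, Trimmomatic 0.38, HISAT2 2.1.0, featureCounts 2.0.0 and DESeq2 1.30.1 were used with mm10; which strand was counted, how multi-mapped reads were handled and the annotation release are not stated there. The 10 genes and the 7 lists of related genes were chosen with earlier results of these data known.

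Groups came from the sample titles. Gene names and coordinates were taken from GENCODE M21 (GRCm38), where 55144 identifiers matched and 241 did not. The quasi-likelihood test of edgeR 4.0.16 (R 4.3.3) was run on the counts with TMM factors, with 1 coefficient per group over all 8 libraries and 4 residual degrees of freedom. Of 55385 genes, 14929 passed filterByExpr (minimum count 10), and the common biological coefficient of variation was 0.243. Tests were two-sided with Benjamini-Hochberg adjustment over all tested genes at 0.05. The pipeline was tested on simulated data. Each standard error was taken as the size of the log2 fold change divided by the root of its F, and intervals are at 95%. With 2 libraries a group an exact permutation test cannot go below p = 0.333. CPM per kilobase used the union of exons. Alternatives were RLE factors, library totals, no filter, a mean of 50 reads, DESeq2 1.42.0, leaving out each library, a replicate block, and only the 4 libraries compared. Related genes were named if called in both lines in 1 direction at 10 CPM or more, up to 3 per list and direction, with 9 always named, and 2 that met this rule are counted in their lists but not reported here by name; Usp7, Dcaf1, Dnmt3c and Mettl23 were named after their values were seen. Motifs were searched on the message strand in 1 transcript per gene, with at least 30 bases of 3 prime UTR for the 10 genes and 150 for the background.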

Additional observations from a re-analysis of the deposited data

How the results depend on the processing

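The count of called genes among the 9 tested was 6 in each maturation comparison (4 higher, 2 lower) and 0 in both line comparisons and the interaction under RLE factors, no filter, a mean of at least 50 reads, DESeq2, only the compared libraries, the replicate block and every left-out library (range 6 to 6, or 0 to 0). Library totals gave 8 of 9 in each line (3 higher, 5 lower), where 68.0% of all tested genes were called in the sex-converted line and 67.7% in the native line, and moved all 18 stage means by more than 1 SD, while RLE factors moved none. Under library totals these maturation values changed sign: Dnmt3a (-0.83 sex-converted, -0.84 native), Dnmt3l (-0.86 native), Uhrf1 (-0.75 native), Dppa3 (-0.088 native), Mbd2 (-0.052 sex-converted, -0.084 native), Uhrf2 (-0.11 sex-converted), Kdm1b (-0.19 sex-converted) and Setd2 (-0.11 sex-converted, -0.0999 native). Without a filter, native Dnmt3a was -0.012 and Dnmt3l -0.038, and with a mean of 50 reads native Dnmt3l was -0.0223 and the MII line difference of Dppa3 -0.012.

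Leaving out single libraries changed the sign of values near 0, none of them called. For sex-converted over native at MII the ranges were -0.30 to 0.42 (Dnmt1), -0.30 to 0.018 (Uhrf1), -0.16 to 0.19 (Dppa3) and -0.37 to 0.11 (Zfp57). At GV they were -0.24 to 0.36 (Dnmt3a), -0.23 to 0.16 (Dnmt3l), -0.32 to 0.52 (Uhrf1), -0.64 to 0.24 (Tet3), -0.46 to 0.019 (Dppa3) and -0.29 to 0.15 (Zfp57). For MII over GV in the sex-converted line they were -0.13 to 0.46 (Dnmt3a), -0.29 to 0.085 (Dnmt3l) and -0.45 to 0.35 (Uhrf1), and in the native line -0.13 to 0.35 (Dnmt3a), -0.11 to 0.27 (Dnmt3l) and -0.11 to 0.56 (Uhrf1).

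Replicate numbers were not shown to pair samples: correlations of the replicate differences between groups were 0.17 for the lines at MII, -0.44 for the lines at GV and -0.062 to 0.084 between stages. With the replicate block the calls among the 9 genes stayed at 6 in each line, and Zfp445 in the sex-converted line was not called, at -0.74. Depth limits Tet2 at GV (17 to 67 reads) and leaves Tdg without a test; outliers cannot be judged in groups of 2.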

Other observations

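The run TTTTAATAAA, in which a CPE overlaps the polyadenylation signal, was picked after the ends of Tet3 and Tet2 had been read, so it has no test. Among the 139 transcripts that hold it, 82 (59.0%) were called higher at MII over GV in the sex-converted line, against 32.8% of the 11455 transcripts searched, and 80 (57.6%) in the native line, against 33.3%. Their median log2 fold change was 1.21 in the sex-converted line, against -0.19 over all searched transcripts, and 1.18 in the native line, against -0.12. Called lower were 26 (18.7%) of them in the sex-converted line, against 35.6%, and 23 (16.5%) in the native line, against 35.1%. The 139 include Tet3 and Tet2, from whose ends the run was picked. Transcripts in which a CPE and a signal stand apart were not counted by themselves. These shares therefore cannot be tied to the joined run over a CPE or a signal alone. Both lines share the same transcripts and the same annotation, and tail length was not measured.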
